A study of Mus musculus with 26 samples.

Results

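The genes described here encode the contractile apparatus that is typical of smooth muscle. They are 10 genes chosen by name, namely Acta2, Actc1, Actg2, Tagln, Cnn1, Cnn2, Myl9, Tpm1, Tpm2 and Mylk, in neurospheres (NSPs) that differentiated into astrocytes with or without TNF. Each was read by 1 probe set, so that 10 of 35556 probe sets of the array are described. The genes had been grouped for a strong early change in untreated cells and for levels that differed little with TNF. Levels at 6, 24 and 72 h against 0 h, and TNF-treated against untreated levels, are therefore given as a description without a test. Not every gene had the course for which the group was chosen. Tpm2 and Actg2 stayed close to their starting level, and Mylk had lower means after 0 h, in good part through replicate 2 of 0 h.

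NSPs came from the ventricular zone of E14 C57BL/6J mouse embryos. All cells other than those of 0 h were kept on poly-L-ornithine in medium with fetal bovine serum, penicillin and streptomycin. Before that, NSPs were grown with EGF and a culture supplement, which the paper does not list for the differentiation medium. Differences from 0 h thus hold this change of medium as well. TNF-treated NSPs received 50 ng/mL TNF and were taken after 6, 24 and 48 h (3 arrays each) and 72 h (2 arrays). Untreated NSPs were taken at 0, 6, 24, 48 and 72 h (3 arrays each). Both arms thus share serum and the coated surface from 6 h on, and no differentiating group lacked serum. The cultures are primary and may hold several cell types. An array reads the RNA of a whole culture, so more cells of a type and more RNA per cell cannot be told apart. All values are log2 signals after RMA, in which 1 unit is a doubling of the signal. Levels were compared within a probe set only, never between genes.

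Contraction outside striated muscle relies on actin filaments and myosin II. In smooth muscle, a rise in calcium activates myosin light chain kinase, which phosphorylates the regulatory light chain of myosin and so allows it to pull on actin. Calponin, transgelin and tropomyosin sit along the actin filament. Many of these genes carry CArG boxes, the DNA element bound by serum response factor (SRF), and respond in many cell types to serum, TGF-β and spreading on a stiff surface through SRF and the MRTF coactivators. Astrocytes and their progenitors are not contractile muscle cells, but actin stress fibres are well known from cultured astrocytes.

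CArG boxes were looked for in the 250 bases before the annotated start, as RefSeq gives them for GRCm38.p6. Such windows were at hand for 8 of the 10 genes, all but Actg2 and Tagln, and 3 of them (Actc1, Cnn2 and Myl9) held a full box, against 1.47% of all 32851 windows. The box has the same pattern on both strands. A box with 1 inner letter other than A or T lay in the windows of Acta2, Actc1 and Myl9, that is in 3 of 8, against 7.24% of all windows. The stretches below are shown because they hold these boxes, which are in capitals. For Acta2, whose window overlaps the annotated gene, only the surroundings of each box are given. The window of Myl9 also reaches into the annotated gene, and only its part before the gene is shown.
Acta2, chr19:34255438-34255467, minus strand: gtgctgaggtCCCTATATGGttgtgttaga
Acta2, chr19:34255388-34255417, minus strand: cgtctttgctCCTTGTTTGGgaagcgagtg
Actc1, chr2:114052876-114053125, minus strand: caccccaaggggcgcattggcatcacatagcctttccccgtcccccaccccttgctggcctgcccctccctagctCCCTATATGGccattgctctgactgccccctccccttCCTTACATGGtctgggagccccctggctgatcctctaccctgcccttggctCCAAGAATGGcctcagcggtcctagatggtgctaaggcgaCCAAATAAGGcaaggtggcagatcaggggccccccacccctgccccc
Cnn2, chr10:79988350-79988599, plus strand: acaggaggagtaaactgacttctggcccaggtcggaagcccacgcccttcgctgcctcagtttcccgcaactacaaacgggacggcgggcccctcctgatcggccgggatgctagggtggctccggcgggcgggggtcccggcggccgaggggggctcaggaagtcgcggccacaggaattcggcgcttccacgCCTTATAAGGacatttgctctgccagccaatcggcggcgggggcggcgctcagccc
Myl9, chr2:156775214-156775407, plus strand: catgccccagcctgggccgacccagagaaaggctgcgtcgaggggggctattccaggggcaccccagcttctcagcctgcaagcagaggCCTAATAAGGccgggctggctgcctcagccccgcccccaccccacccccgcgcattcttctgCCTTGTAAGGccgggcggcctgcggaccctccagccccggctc

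The full boxes began 47 bases before the start of Actc1, 56 before that of Cnn2 and 161 before that of Myl9. The boxes with a changed letter began 84 and 34 bases before the start of Acta2, 175, 138 and 87 before that of Actc1 and 99 before that of Myl9. The starts counted from are the ends of the windows, and those of Acta2 and Myl9 lie inside the annotated gene. The windows of Cnn1, Tpm1, Tpm2 and Mylk held neither form. Those of Tpm1 (chr9:67049214-67049463) and Mylk (chr16:34784700-34784949) lie wholly inside the annotated gene, before an inner start. For these genes the bases before the outer end of the gene were not searched. The letters CATTCC, read on either strand, were in the windows of Acta2, Tpm1 and Mylk and in 12.6% of all windows, and overlapped no box. A match of letters is not a site at which a factor was shown to bind in these cells.

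Acta2 (chr19:34240336-34255585) encodes smooth muscle α-actin, the standard marker of smooth muscle cells, pericytes and myofibroblasts. It had the greatest change from 0 h of the 10 genes. In TNF-treated cells it was at 12.05, 13.08 and 13.20 at 6 h, 12.86, 13.23 and 13.15 at 24 h, 12.04, 12.67 and 12.35 at 48 h, with 12.33 and 12.43 at 72 h. In untreated cells it was at 8.37, 8.51 and 8.32 at 0 h, 11.96, 13.10 and 13.13 at 6 h, 12.58, 13.48 and 13.10 at 24 h, 11.67, 13.10 and 12.21 at 48 h, then 12.16, 12.93 and 12.39 at 72 h. Every array of 6 h and later, with or without TNF, lay more than 3 units above the 3 arrays of 0 h. The difference of untreated cells at 6 h from those at 0 h was 4.33 ± 0.356 (SE), or 20.1-fold, and at 72 h it was still 4.09, or 17.1-fold. Among the 8 groups after 0 h, means ran from 12.33 to 13.08, with SDs of up to 0.722, so neighbours in that order did not stand apart by more than the spread of their arrays.

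Actc1 (chr2:114047282-114052875) encodes cardiac α-actin, which is also made in embryonic skeletal muscle. Its course was a different one, with high levels at 0 and 6 h and low ones from 24 h on. In TNF-treated cells it was at 12.62, 12.24 and 12.73 at 6 h, 8.71, 8.67 and 8.96 at 24 h, 8.24, 8.23 and 8.52 at 48 h, with 8.43 and 8.44 at 72 h. Untreated cells had 11.90, 9.36 and 12.08 at 0 h, 12.76, 12.47 and 13.07 at 6 h, 8.54, 8.71 and 8.85 at 24 h, 8.39, 8.30 and 8.37 at 48 h, then 8.27, 8.23 and 8.37 at 72 h. All arrays of 24 h and later lay below all arrays of 6 h and 0 h in both arms. From 6 to 24 h the difference was -3.75 in TNF-treated cells and -4.07 in untreated cells. The difference of untreated cells at 6 h from 0 h (1.65 ± 0.413) rested in good part on replicate 2 of 0 h, and was 0.78 without that array.

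Actg2 (chr6:83512909-83536251), the γ-actin of visceral smooth muscle, stayed between 6.74 and 7.80 on all 26 arrays. Its untreated means were 7.05, 7.33 and 6.87 at 0, 6 and 72 h, and the arrays of 6 h and of 72 h each overlapped those of 0 h. The muscle actins are nearly alike in protein sequence, and whether the probes of one read the RNA of another was not tested. Over the 9 group means, the Pearson correlation of Acta2 was -0.22 with Actc1 and 0.15 with Actg2, while that of Actc1 with Actg2 was 0.82. Actc1 was also at 0.77 with Tpm2 and 0.73 with Mylk, which are not actins. These coefficients describe 9 means that come from the same arrays, and are no test of which RNA each probe set reads.

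**Figure D1:**
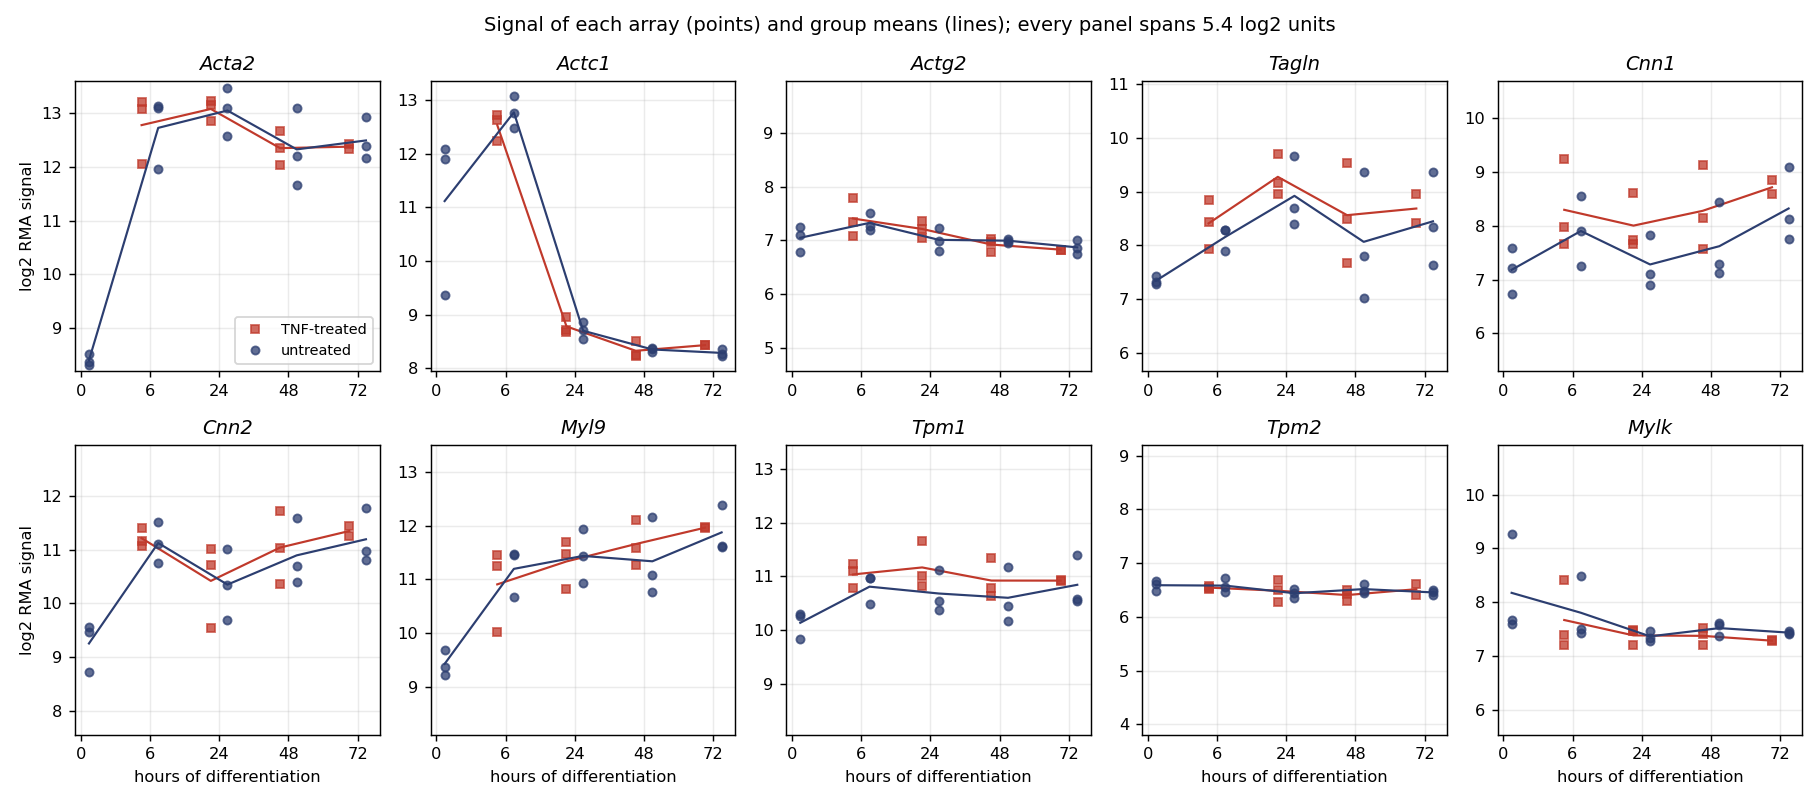
Log2 RMA signal (y axis) of the 10 genes against hours of differentiation (x axis, evenly spaced) in TNF-treated (red squares) and untreated (blue circles) NSPs. Points are arrays and lines join group means. Acta2 goes from 8.40 at 0 h to means of 12.33 or more, Actc1 is high at 0 and 6 h and low from 24 h on, and Tpm2 stays between 6.28 and 6.73.

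The group means of the light chain and its kinase took different courses. Myl9 (chr2:156775408-156781657) encodes the regulatory light chain of smooth muscle and non-muscle myosin II. In TNF-treated cells it was at 10.02, 11.45 and 11.25 at 6 h, 10.83, 11.70 and 11.48 at 24 h, 11.27, 12.11 and 11.59 at 48 h, with 11.98 and 11.95 at 72 h. Without TNF it was at 9.22, 9.68 and 9.38 at 0 h, 10.67, 11.45 and 11.47 at 6 h, 10.93, 11.94 and 11.44 at 24 h, 10.76, 12.16 and 11.09 at 48 h, then 11.63, 12.39 and 11.60 at 72 h. The arrays of 0 h lay below all others. Against 0 h the difference of untreated cells was 1.77 ± 0.388 at 6 h (3.41-fold), 2.01 at 24 h and 2.45 at 72 h (5.46-fold).

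Mylk (chr16:34745199-35002436) encodes myosin light chain kinase, the enzyme that phosphorylates this light chain. Untreated cells had 7.66, 9.27 and 7.59 at 0 h and 7.49, 8.48 and 7.43 at 6 h, and their arrays lay between 7.28 and 7.61 from 24 h on. TNF-treated cells had 7.20, 8.42 and 7.38 at 6 h and lay between 7.20 and 7.51 later. Replicate 2 was thus well above the others of its group at 0 and 6 h, with and without TNF, and close to them from 24 h on. The difference of untreated cells at 6 h from 0 h was -0.37 ± 0.345 over all arrays and 0.18 without replicate 2 of 0 h, while same-numbered arrays differed by -0.17, -0.79 and -0.15.

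Of the calponins, Cnn2 was the one with the clear early change. Cnn2 (chr10:79988600-79995400) encodes calponin 2, which is found in many cell types beyond muscle. In TNF-treated cells it was at 11.07, 11.16 and 11.40 at 6 h, 9.53, 11.01 and 10.71 at 24 h, 10.36, 11.72 and 11.03 at 48 h, with 11.25 and 11.44 at 72 h. The untreated cells had 8.72, 9.47 and 9.56 at 0 h, 11.10, 10.76 and 11.51 at 6 h, 9.69, 11.01 and 10.35 at 24 h, 10.39, 11.59 and 10.69 at 48 h, then 10.81, 11.78 and 10.98 at 72 h. The untreated arrays of every later time lay above those of 0 h, by a mean of 1.87 ± 0.414 at 6 h (3.65-fold) and 1.94 at 72 h. The means were lower at 24 h than at 6 h in both arms, with a difference of -0.80 in TNF-treated cells and -0.77 in untreated cells.

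Cnn1 (chr9:22099221-22109221) encodes calponin 1, a late marker of smooth muscle differentiation. In TNF-treated cells it was at 7.67, 9.25 and 7.98 at 6 h, 7.75, 8.61 and 7.66 at 24 h, 7.57, 9.13 and 8.14 at 48 h, with 8.59 and 8.85 at 72 h. In untreated cells it was at 7.59, 7.21 and 6.74 at 0 h, 7.26, 8.55 and 7.90 at 6 h, 6.90, 7.84 and 7.11 at 24 h, 7.29, 8.45 and 7.13 at 48 h, then 7.76, 9.09 and 8.12 at 72 h. Among the untreated groups only the arrays of 72 h were all above those of 0 h (difference 1.14 ± 0.48), and those of 6, 24 and 48 h overlapped them. At 6 h the same-numbered difference from 0 h was 1.34 and 1.16 in replicates 2 and 3 but -0.33 in replicate 1.

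Tagln (chr9:45929628-45936058) encodes transgelin, an actin-binding protein of smooth muscle also known as SM22α. In TNF-treated cells it was at 7.94, 8.85 and 8.44 at 6 h, 8.96, 9.70 and 9.17 at 24 h, 7.67, 9.53 and 8.48 at 48 h, with 8.41 and 8.96 at 72 h. Without TNF the values were 7.43, 7.28 and 7.31 at 0 h, 7.90, 8.29 and 8.28 at 6 h, 8.41, 9.66 and 8.69 at 24 h, 7.02, 9.37 and 7.81 at 48 h, then 7.64, 9.36 and 8.34 at 72 h. Its highest mean was at 24 h in both arms. The difference of untreated cells from 0 h was 0.81 ± 0.514 at 6 h, 1.58 at 24 h (2.99-fold) and 1.11 at 72 h. The spread between arrays was widest at 48 h, with an SD of 0.935 in TNF-treated and 1.19 in untreated cells, against 0.0802 at 0 h.

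The 2 tropomyosin genes, whose products lie in the groove of the actin filament and control access of myosin, also differed. Tpm1 (chr9:67022590-67049672) had 10.78, 11.23 and 11.09 at 6 h, 10.82, 11.66 and 11.01 at 24 h, 10.64, 11.35 and 10.78 at 48 h, with 10.92 and 10.92 at 72 h in TNF-treated cells. In untreated cells it had 9.84, 10.31 and 10.26 at 0 h, 10.48, 10.97 and 10.97 at 6 h, 10.38, 11.12 and 10.54 at 24 h, 10.17, 11.18 and 10.46 at 48 h, then 10.55, 11.40 and 10.59 at 72 h. The early change was small but even, with same-numbered differences at 6 h from 0 h of 0.64, 0.67 and 0.71. Tpm2 (chr4:43513726-43523583) stayed between 6.28 and 6.73 on all 26 arrays, and its difference at 6 h from 0 h was -0.01 ± 0.103. Tpm1 makes many isoforms, in muscle and elsewhere, and its single probe set does not tell them apart.

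**Figure D2:**
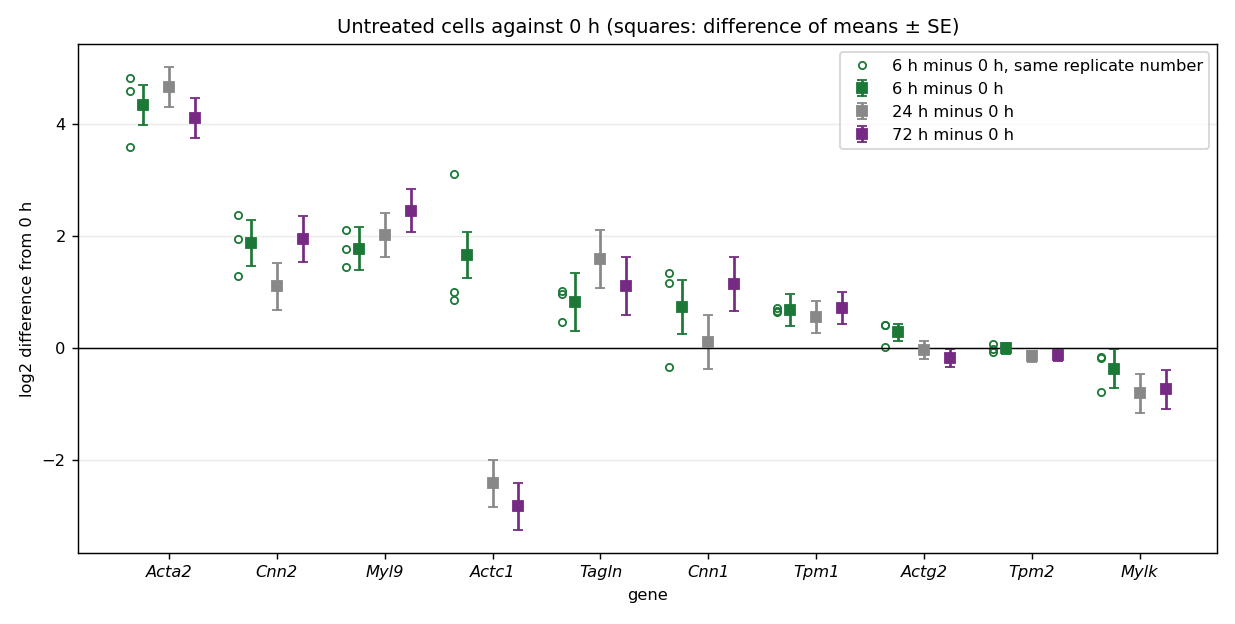
Log2 difference from 0 h in untreated cells (y axis) of the 10 genes (x axis, ordered by the change at 6 h). Squares are differences of group means with their SE at 6 h (green), 24 h (grey) and 72 h (purple), and open circles are same-numbered arrays at 6 h. Acta2 stands at 4.33 at 6 h, Actc1 goes below 0 at 24 h, and Cnn1 has 1 of 3 circles below 0.

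Counted together, the arrays of 6 h lay wholly above those of 0 h for 6 of the 10 genes (Acta2, Actc1, Tagln, Cnn2, Myl9 and Tpm1) and wholly below for none, against 9.47% and 5.72% of all probe sets. At 72 h the arrays were wholly above for 6 genes, with Cnn1 in the place of Actc1, and wholly below for Actc1 and Mylk, against 14.8% and 14.1% of all probe sets. The median difference at 6 h was 0.77, beside -0.02 over all probe sets. These counts follow from how the genes were chosen. The comparisons with 0 h share the same 3 arrays, and replicate 2 of that group stood apart in Actc1 and in Mylk, in opposite directions.

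The later steps took no part in the choice and were tested across all probe sets with limma, with q-values over all 35556. For cells at 48 h against 24 h, 0.411% of probe sets passed with TNF and 0.121% without. For cells at 72 h against 48 h, 0% (0 probe sets) passed with TNF and 0.00844% (3 probe sets) without. None of the 10 genes had a q-value under 0.05 in any of these 4 comparisons. None had an unadjusted p under 0.05 in this fit, which left out replicate numbers, also where same-numbered arrays deviated together. So few probe sets passed that this count says little about the genes themselves.

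From 24 to 48 h the 2 largest differences in each arm were those of Acta2 and Tagln, both downward. In TNF-treated cells Acta2 differed by -0.73 ± 0.356 (q-value 0.82), Tagln by -0.71 ± 0.514, Cnn2 by 0.62 ± 0.414 and Actc1 by -0.45 ± 0.413. The TNF-treated arrays of 48 h lay wholly below those of 24 h for Acta2, Actc1 and Actg2, and wholly above for no gene, against 5.93% of all probe sets below. In untreated cells Tagln differed by -0.86 ± 0.514, Acta2 by -0.72 ± 0.356 and Cnn2 by 0.54 ± 0.414. Here only the arrays of Actc1 did not overlap, with a difference of -0.35 ± 0.413, against 7.08% of all probe sets below. From 48 to 72 h the largest difference was in Cnn1, with 0.44 ± 0.537 in TNF-treated and 0.70 ± 0.48 in untreated cells, and no arrays were apart. Cnn2 followed in TNF-treated cells with 0.31 ± 0.463, and Myl9 in untreated cells with 0.54 ± 0.388.

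Differences between TNF-treated and untreated cells were small beside the early change for Acta2, Cnn2, Myl9 and Actc1, but not for Cnn1 and Tpm1. For Acta2 they were 0.05, 0.03, 0.02 and -0.12 at 6, 24, 48 and 72 h, each with an SE of 0.356 or, at 72 h, 0.398, so that differences of the size of that SE could not be told from none at this number of arrays. For Actc1 they were -0.24, 0.08, -0.02 and 0.14, and for Cnn2 0.09, 0.07, 0.15 and 0.15. For Myl9 they were -0.29, -0.10, 0.32 and 0.09. The signal with TNF was thus neither steadily above nor steadily below that without it in Actc1 and Myl9. Actg2, Tpm2 and Mylk had differences between -0.15 and 0.20 at all 4 times.

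Cnn1, Tpm1 and Tagln had means that were higher with TNF at all 4 times, as had Cnn2. With TNF, Cnn1 was higher by 0.39 ± 0.48, 0.72 ± 0.48, 0.66 ± 0.48 and 0.39 ± 0.537 at 6, 24, 48 and 72 h, beside an early change of 0.72. Tpm1 was higher by 0.23, 0.49, 0.32 and 0.08 (SE 0.285, at 72 h 0.319), and Tagln by 0.25, 0.35, 0.50 and 0.24 (SE 0.514, at 72 h 0.575). In each of Cnn1, Tpm1 and Tagln the TNF-treated array was above the untreated array of the same number in all 9 pairs of 6, 24 and 48 h, against 3.51% of all probe sets. At 72 h it was above in replicate 1 and below in replicate 2. Which untreated array the second TNF-treated array of 72 h belongs with is not certain from the records, and it lay above untreated replicate 3 in all 3 genes. The arrays of the 2 arms overlapped for all 10 genes at 6, 24 and 48 h, where 4.31%, 6.85% and 6.41% of all probe sets were wholly higher and 4.24%, 7.31% and 5.76% wholly lower with TNF. At 72 h, with 2 arrays, Actc1 was wholly higher and Mylk wholly lower with TNF, against 19% and 22% of all probe sets.

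**Figure D3:**
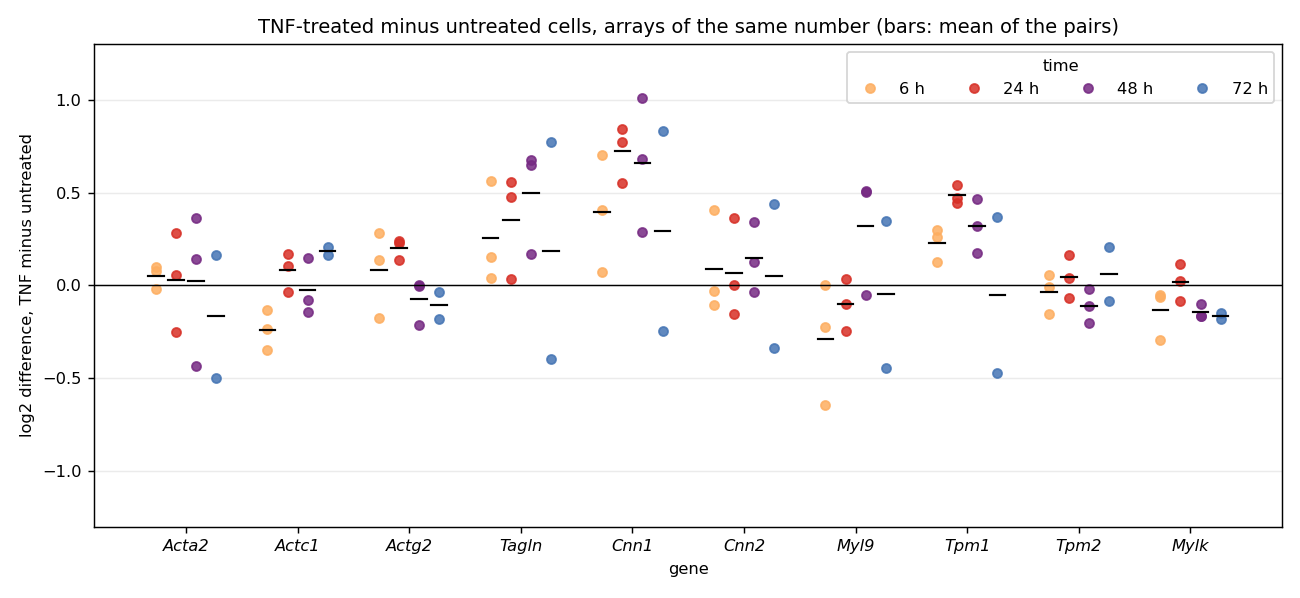
Log2 difference of TNF-treated minus untreated NSPs (y axis) for arrays of the same number at 6, 24, 48 and 72 h (colours), for the 10 genes (x axis). Bars are means of the pairs, 2 at 72 h, where they differ from the difference of group means because the third untreated array has no partner. Cnn1, Tpm1 and Tagln have all 9 points of 6, 24 and 48 h above 0, and 1 of 2 points of 72 h below it, a point that sets the second TNF-treated array against untreated replicate 2, although it lay above replicate 3.

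In most of the genes, arrays of the same replicate number lay on the same side of their groups. How often this held over all probe sets was not counted, so it cannot be called a trait of these genes. Same-numbered arrays as such deviated together in some comparisons, as in untreated cells at 6 h against 0 h (correlations of 0.679, 0.596 and 0.503). In the 8 groups with 3 arrays, replicate 2 was the highest in 8 for Tpm1, in 7 for Tagln, Cnn1, Myl9, Actg2 and Mylk, in 6 for Acta2 and in 5 for Cnn2. Replicate 1 was the lowest in 8 groups for Tpm1, in 7 for Acta2, Tagln, Cnn2 and Myl9 and in 5 for Cnn1. Actc1 ran otherwise, with replicate 3 the highest and replicate 2 the lowest in 7 groups each. For Tagln the mean deviation from the group mean was -0.53, 0.61 and -0.08 for replicates 1, 2 and 3, and for Cnn1 -0.39, 0.65 and -0.27, which is as large as the TNF differences of these genes. The labels do not say what a replicate number stands for.

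Marker lists of other cells were set beside this, as list means that cannot be compared in size with single genes. The mean over 10 mural cell markers deviated by 0.07, -0.05 and -0.02 in replicates 1, 2 and 3, and that over 8 fibroblast and meningeal markers by 0.02, 0.06 and -0.08, with replicate 2 the highest in 7 of 8 groups. For 4 neuronal markers it was 0.15, -0.18 and 0.03, with replicate 2 the lowest in all 8 groups. Their part in the differences between replicate numbers was not tested.

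The cells that make these proteins in a brain were looked for with the same lists. At 6 h against 0 h, none of the 10 mural cell markers rose and 2 fell, against 4.64% and 3.03% of all probe sets. In lists this short, a single marker or none past the threshold is near these shares and says little about a cell type. Cspg4 (NG2) fell by 0.99 (q-value 0.0127) and Notch3 by 1.15 (q-value 1.07e-05), from means of 10.50 and 10.41 at 0 h. The other markers had 0 h means of 6.36 to 7.58, near or below the array medians of 7.54 to 7.76. The list mean was 7.28 to 7.38 at 6 h and 7.45 to 7.78 at 0 h, and Cspg4 and Notch3 changed most. Whether they read mural cells in this culture was not tested. Pdgfrb changed by -0.23 and Rgs5 by 0.16. Myh11, the myosin heavy chain found in few cells other than smooth muscle, stayed between 7.24 and 7.70 on all 26 arrays, while Acta2 changed 20.1-fold. At 72 h against 0 h, 1 mural marker passed as higher and 2 as lower, against 22.8% of all probe sets in either direction. Rgs5 rose by 0.55 (q-value 0.000775), while Cspg4 differed by -2.01 (q-value 2.99e-06) and Notch3 by -1.06 (q-value 5.96e-06). Of the 11 striated muscle markers none passed the test, and their list mean was 7.07 to 7.25 at 6 h and 6.98 to 7.41 at 0 h. Of the 8 fibroblast and meningeal markers only Fn1, which encodes the matrix protein fibronectin, rose at 6 h (2.17, q-value 0.000682), and Foxc1 joined it at 72 h (0.83, q-value 0.0432). In TNF-treated against untreated cells, no mural, striated muscle or fibroblast marker passed the test at any time. Of the 8 astrocyte markers 1 rose and 1 fell at 6 h, and only 2 had differences above 0, with a median of -0.30. Gfap, the classic astrocyte filament, rose by 2.49 (q-value 2.15e-06), while Slc1a3 fell by 0.37 (q-value 0.0211). At 72 h against 0 h, 4 of the 8 passed as higher and none as lower, against 22.8% of all probe sets in either direction. Gfap was then higher by 4.54 (q-value 1.51e-10).

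The wider contractile pathway was read from 5 lists, with 82 of 86 genes measured and none of the 10 genes among them. At 6 h against 0 h, 18 of the 82 genes rose and 3 fell, against 4.64% and 3.03% of all probe sets. The median difference was 0.14, beside -0.02 over all probe sets. The lists were drawn up with earlier results on these arrays known, so their counts are no independent support for the early change.

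Proteins that anchor and bundle stress fibres accounted for 9 of the 18, out of 26 measured, and none fell. Nexn, whose product nexilin binds actin at adhesions, was at 7.95, 8.67 and 8.74 at 6 h, against 5.63, 6.27 and 6.06 at 0 h, a rise of 2.46 ± 0.307 (q-value 1.76e-05). Synpo2, encoding an actin-bundling partner of α-actinin, was at 9.67, 9.58 and 9.67 at 6 h, against 7.81, 7.08 and 7.39 at 0 h (2.21 ± 0.15, q-value 7.5e-09). The arrays were far apart in both. Actn1, the α-actinin of stress fibres, rose by 2.07 (q-value 9.3e-07) and Csrp2, a LIM protein of vascular smooth muscle, by 1.19 (q-value 0.000188). Other well-known parts of the smooth muscle apparatus in this list did not pass the test, among them Cald1 (caldesmon, 0.01), Lmod1 (leiomodin, -0.06), Smtn (smoothelin, 0.08) and Des (desmin, -0.01).

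Of the serum and TGF-β response list, 5 of 15 genes rose and none fell. Thbs1, encoding the matrix protein thrombospondin 1 that can activate TGF-β, was at 11.42, 11.93 and 11.61 at 6 h, against 8.35, 8.01 and 8.26 at 0 h, a rise of 3.45 ± 0.293 (10.9-fold, q-value 1.32e-07). Ccn1 rose by 2.36 (q-value 4.06e-05) and Ccn2 by 1.89 (q-value 0.000771), known also as Cyr61 and Ctgf, which encode secreted proteins and are targets of SRF and YAP signalling. Tgfb2, a TGF-β ligand, rose by 1.11 (q-value 0.000992). The receptors Tgfbr1 and Tgfbr2 and the ligand Tgfb1 had differences of 0.12, -0.16 and -0.03 and did not pass.

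Genes of the same protein families split. Of 14 measured, 2 rose and 1 fell. Myl12a, another regulatory light chain, rose by 1.05 (q-value 0.013) and Myl6, the essential light chain, by 0.40 (q-value 0.0113), while Myh14, a non-muscle myosin heavy chain, fell by 0.36 (q-value 0.0345). Actb, the common cytoskeletal actin, differed by 0.07 and did not pass. Among the 14 genes that bear on light chain phosphorylation, 2 rose and 1 fell: Prkg1 (the cGMP-dependent kinase) rose by 0.52 (q-value 0.0127), Ppp1r12a (the targeting subunit of myosin phosphatase) by 0.49 (q-value 0.0166), and Arhgef2 fell by 0.86 (q-value 1.55e-05). Of the 13 genes of SRF and its partners none rose, and Mrtfb (Mkl2 in the platform annotation) fell by 0.47 (q-value 0.0229), while Srf differed by 0.05, Mrtfa by -0.02 and Myocd, the smooth muscle and heart coactivator, by -0.10.

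Leaving out single arrays of 6 h or 0 h ended 6 of these calls. Without replicate 1 of 0 h, Myl12a was at 0.71 (q-value 0.0743) and Myh14 at -0.28 (q-value 0.125), and without replicate 2 or 3 of 0 h Mrtfb had a q-value of 0.0703 or 0.0541. Without replicate 1 of 6 h, Myh14 (q-value 0.0777) and Mrtfb (q-value 0.0735) did not pass, and without replicate 2 neither did Ppp1r12a (q-value 0.103), Myh14 (q-value 0.105) and Mrtfb (q-value 0.0958). Without replicate 3 of 6 h, Myl12a (q-value 0.0546), Myl6 (q-value 0.112), Prkg1 (q-value 0.0851), Ppp1r12a (q-value 0.0568) and Myh14 (q-value 0.0926) did not. Nexn, Synpo2, Actn1, Csrp2, Thbs1, Ccn1, Ccn2, Tgfb2 and Arhgef2 passed whichever array was left out.

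**Figure D4:**
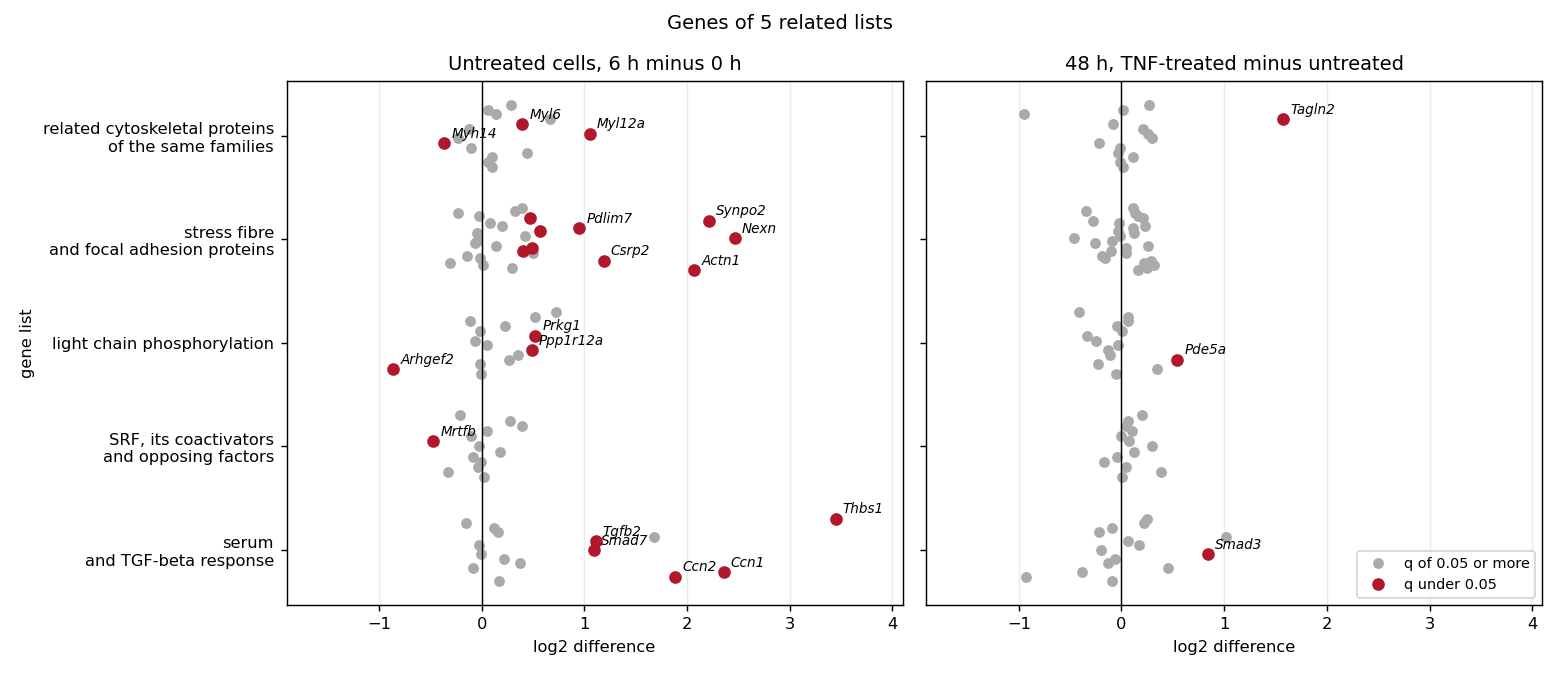
Log2 differences (x axis) of the measured genes of 5 lists (y axis), in untreated cells at 6 h against 0 h (left) and in TNF-treated against untreated cells at 48 h (right). Each point is a gene, and red points have a q-value under 0.05. At 6 h there are 18 red points right of 0 and 3 left of it, and in the comparison at 48 h there are 3, all right of 0.

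With TNF, few of these 82 genes differed. At 6 h 1 gene rose and none fell, against 0.312% and 0.0141% of all probe sets. It was Klf4, which encodes a repressor of smooth muscle genes, at 8.96, 9.32 and 8.66 in TNF-treated cells, against 8.30, 8.45 and 8.07 in untreated cells (0.70 ± 0.133, q-value 0.0136). The arrays did not overlap, but the call was lost without replicate 1 of either arm, without TNF-treated replicate 2 or without untreated replicate 3 (q-values of 0.0524 to 0.155). With replicate number as a block, in a comparison where same-numbered arrays deviated together, 3 genes passed, against 0.613% of all probe sets. The 2 added, Ier3 (0.92) and Lif (0.74, which encodes a cytokine that drives astrocyte formation), had no call without the block (q-values of 0.058 and 0.0942).

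At 24 h none of the 82 genes passed (7 were higher and 3 lower at an unadjusted p under 0.05, by limma), against 0.863% of all probe sets. At 48 h 3 genes rose and none fell, against 0.773% and 0.264% of all probe sets. Tagln2, the transgelin of non-muscle cells, was at 11.44, 11.39 and 11.93 in TNF-treated cells, against 9.72, 9.76 and 10.55 in untreated cells (1.58 ± 0.378, q-value 0.0428). It also differed by 0.59, 1.29 and 1.68 at 6, 24 and 72 h, without passing (q-values 0.894, 0.172 and 0.0554). Smad3, which carries TGF-β signals, rose by 0.84 ± 0.18 (q-value 0.0191) and Pde5a, the cGMP phosphodiesterase of smooth muscle, by 0.54 ± 0.129 (q-value 0.0424). At 72 h Smad3 alone passed, with 0.82 ± 0.201 (q-value 0.0486), against 1.15% of all probe sets in either direction. Nexn was at 7.05 and 7.31 with TNF at 72 h, against 8.25, 8.69 and 7.98 without, a difference of -1.13 ± 0.343 that did not pass (q-value 0.141).

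The calls at 48 h were lost with fewer arrays, while the differences stayed close to those over all arrays. Without any 1 array of the 6, no more than 2 of the 82 genes passed, and without untreated replicate 1 none of Tagln2 (1.43, q-value 0.264), Smad3 (0.80, q-value 0.116) and Pde5a (0.51, q-value 0.219) did. Tagln2 also varied at 0 h, with 9.09, 11.52 and 10.27, of which replicate 2 was the highest.

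The course of the 10 genes was finally set beside that of all others. Among 3056 probe sets with a single gene symbol and group means that span at least 1 unit, those most like the mean of the 10 centred profiles, by the Pearson correlation over the 9 group means, were Myl12a (0.977), Pdgfc (0.973), Inpp5a (0.961), Cav2 (0.955), Tnfrsf12a (0.955), Hmox1 (0.948), Hbegf (0.941), Ehd2 (0.941), Klf5 (0.941) and Gadd45b (0.941). The 10 genes themselves ranged from -0.39 for Mylk and -0.04 for Tpm2 to 0.81 for Acta2 and 0.82 for Tpm1. The mean profile is thus shared by part of the 10 genes only. The profiles were centred but not scaled, so that Acta2 and Actc1 weigh most in it. Their group means span 4.68 and 4.48 units, against 0.18 (Tpm2) to 2.54 (Myl9) in the other genes. Over the 9 means Myl9 and Mylk, the light chain and its kinase, had a correlation of -0.92. The higher Mylk means of 0 and 6 h rested in good part on replicate 2. That replicate was the highest in 7 of 8 groups for both genes. Actc1 had its highest coefficients with Actg2 (0.82), Tpm2 (0.77) and Mylk (0.73), and coefficients of -0.45 with Tagln and -0.56 with Myl9.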

How the data were processed

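Total RNA of 26 samples was hybridised to Affymetrix mouse gene arrays. The deposited values are log2 signals, which the authors made with RMA (oligo package, R 3.3.1, per the submitters' processing notes, with no version given there for oligo and RMA). They were used as deposited. Genes were named through the platform annotation and placed on GRCm38.p6 with a RefSeq table. Array medians were 7.54 to 7.76, correlations between arrays 0.947 to 0.996, and no arrays were identical. The number of arrays limits the precision, and the replicates are called biological without saying whether cultures or animals were separate, so p-values measure the spread between arrays, which may be technical in part.

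A model with 9 group means was fitted to the 26 arrays together with limma 3.58.1 (R 4.3.3), and a probe set passed with a q-value under 0.05 over all 35556 (own implementation of the qvalue smoother, tested on simulated data). The named genes are the 10 members, up to 4 genes of each list past the threshold with the largest change at 6 h and up to 3 with the largest TNF difference, and the 10 most alike profiles. Genes given as not passing and Slc1a3, Fn1, Gfap and other markers fall outside that rule and were picked once their values had been seen. Members and lists were chosen with earlier results of these data known. Of the 86 listed genes, 82 were measured, and the others are not reported here.

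Replicate numbers were taken to pair arrays where all 3 same-numbered pairs correlated above 0.1 after removing group means. This held for untreated cells at 6 h against 0 h (0.679, 0.596 and 0.503), 72 h against 48 h and 72 h against 0 h, for TNF-treated cells at 48 h against 24 h (0.429, 0.435 and 0.176) and for TNF at 6 h (0.674, 0.559 and 0.461). It did not hold for the other tested comparisons. Alternatives were Benjamini-Hochberg adjustment, a q-value under 0.01, fits on only the arrays compared, array weights, cyclic loess, a robust prior with an intensity trend, the block, averaging the probe sets of a gene, leaving out the dimmest 40% of probe sets, and leaving out each array.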

Additional observations from a re-analysis of the deposited data

How the results depend on the processing

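None of the 10 genes passed in the 4 tested later steps under any alternative or with any array left out. The count of list genes that passed at 6 h against 0 h was 21, and became 11 with a q-value under 0.01, 6 with only the arrays compared, 48 with array weights, 30 with the replicate block and 12 to 23 with an array left out. For TNF at 6 h it was 1, and became 0 with a q-value under 0.01, 0 with only the arrays compared, 3 with cyclic loess, 10 with array weights, 3 with the replicate block, 2 without dim probe sets and 0 to 3 with an array left out. For TNF at 24 h it was 0, and became 2 with only the arrays compared, 1 with cyclic loess, 7 with array weights, 3 with the replicate block and 2 without dim probe sets, while it stayed at 0 with each array left out. For TNF at 48 h it was 3, and became 0 with a q-value under 0.01, 1 with only the arrays compared and 5 with array weights. It was 6 with the replicate block, of which 4 were higher and 2 lower, among them Tagln3 (-0.95, q-value 0.00414). With an array left out it was 0 to 2. For TNF at 72 h it was 1, and became 0 with a q-value under 0.01, 7 with only the arrays compared, 2 with cyclic loess, 20 with array weights, 8 with the replicate block, 4 without dim probe sets, 0 when a gene's probe sets were averaged and 0 to 1 with an array left out. The median difference of the 10 genes at 6 h against 0 h was 0.77, and became 1.23 without dim probe sets, which drops some of the 10 genes, and 0.67 to 0.99 with an array left out. The cause of these shifts was not tested, and the array weights had not fully converged. With only the arrays compared, Csrp2 (q-value 0.0802), Arhgef2 (0.0815) and Tgfb2 (0.0727) no longer passed at 6 h against 0 h. Nexn at 72 h with TNF passed with the replicate block (-1.12, q-value 0.0363), with only the arrays compared (q-value 0.0316) and with array weights (-1.06, q-value 0.00256). For TNF-treated against untreated cells at 24, 48 and 72 h the samples share only a number, since the pairs did not all correlate above 0.1, and in the tested later steps the block changed no call of the 10 genes. No call changed direction. The SEs given for the 10 genes are without the block, also where same-numbered arrays deviated together. With 3 arrays a group they were 0.103 to 0.514, and even differences of 2 SE, such as that of Acta2 from 24 to 48 h, did not pass. With the replicate block they were 0.0779 to 0.372. Acta2 in TNF-treated cells at 48 h against 24 h was then at -0.73 ± 0.225 and still did not pass (q-value 0.169).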
